A study of Homo sapiens with 6 samples.

Results

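Immediate early genes were followed here as a group of 10: the transcription factor genes FOS, FOSB, JUN, JUNB, EGR1, ATF3 and NR4A1, the nuclear protein gene IER2, the synaptic gene ARC and the phosphatase gene DUSP1. They were chosen by symbol, all 10 were found among the 59151 genes measured, and each was read in all 6 libraries. The cells were forebrain neuron progenitors at day 26, which the labels also call neurons, grown from the established human embryonic stem cell line H9. Total RNA depleted of ribosomal RNA was sequenced from 2 scramble libraries (genotype WT, scrambled control hairpin), 2 shRNA1 libraries and 2 shRNA2 libraries, the last 4 labelled as knockdown of circRTN4(2,3), a circle that RTN4 transcripts form, by 1 of 2 short hairpins. Neither the vector and promoter of the hairpins nor any stimulation of the cells is given in the sources used here, and the libraries were made to study the function of circRTN4(2,3). Replicates are numbered in the labels, but whether each was its own culture is not stated; the p-values therefore reflect spread from library to library, which may be technical.

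Immediate early genes are transcribed within minutes of a growth factor, calcium, stress or synaptic signal, from factors already present in the cell. Kinases of the MAP kinase family and calcium-dependent kinases activate serum response factor with its partners at CArG boxes, and CREB at cAMP response elements. The products include FOS and JUN proteins, which pair to form AP-1, and they switch on later genes; their transcripts are short-lived, many of them through AU-rich elements. In neurons the same genes are used as marks of recent activity.

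Levels are FPKM, fragments per kilobase of gene scaled to the size of the library, so genes can be compared per length. The reads behind the FPKM values numbered 46634855 in scramble replicate 1 and 77187298 to 83629504 in the other 5 libraries. RTN4, whose FPKM mixes linear and circular RNA and so does not check the knockdown, lay at 40.3 and 38.5 FPKM in scramble, 34.2 and 34.7 in shRNA1 and 31.2 and 31.3 in shRNA2, and its difference did not pass the test in any comparison (limma adjusted p from 0.0756 to 0.419). Of 12 forebrain progenitor markers, 12 reached a mean of 1 FPKM, as did 10 of 12 neuron markers, whereas 0 of 8 microglia, 0 of 6 endothelial and 0 of 8 mesenchymal and pericyte markers did. In bulk RNA, fewer cells of a type and less RNA per cell cannot be told apart.

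The promoters of these genes were searched because the group is defined by shared control. RefSeq promoter windows (GRCh38.p14, from 250 bases before to 50 bases after a start site) were matched for 9 of the 10 genes, with 11 windows in all. The motifs, searched on both strands, were the cAMP response element TGACGTCA, its core TGACG, the CArG box, the AP-1 motifs TGACTCA and TGAGTCA, which are reverse complements of each other, and the EGR motif GCGTGGGCG. Each full cAMP response element also counts as a core on both strands. The core was in 7 of the 11 windows, 1 for each of 7 genes, against 24.6% of 35116 promoter windows of all genes. A full element was in the DUSP1 window alone (1.85% of all windows), and 2 CArG boxes were in the EGR1 window alone (1.29%). AP-1 motifs (4.95% of all windows) and the EGR motif (0.795%) had 0 matches in these windows. In the stretches shown, 5′ to 3′ on the gene's strand, capitals mark the cAMP response element or its core, read on either strand, and in EGR1 also the CArG boxes; they lie on chr5:138465339-138465421 (plus strand, EGR1), chr5:172771296-172771371 (minus, DUSP1), chr14:75278744-75278773 (plus, FOS), chr19:45467916-45467955 (plus, FOSB), chr19:12791329-12791369 (plus, JUNB), chr19:13150251-13150290 (plus, IER2) and chr1:58784156-58784181 (minus, JUN). All but the JUN stretch lie upstream of the gene's outermost start in GENCODE v29; the JUN stretch lies 3′ of that start, within the annotated gene.
EGR1: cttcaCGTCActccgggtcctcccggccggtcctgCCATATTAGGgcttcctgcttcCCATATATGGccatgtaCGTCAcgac
DUSP1: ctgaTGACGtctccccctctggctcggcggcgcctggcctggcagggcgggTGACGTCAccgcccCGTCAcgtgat
FOS: cgccaccgtggttgagcccgTGACGtttac
FOSB: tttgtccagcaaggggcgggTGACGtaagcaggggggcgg
JUNB: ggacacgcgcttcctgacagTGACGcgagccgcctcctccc
IER2: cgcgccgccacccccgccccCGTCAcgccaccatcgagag
JUN: agtctccatggTGACGggcgggcccg

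In EGR1 the 2 CArG boxes sat at positions -105 to -96 and -83 to -74 from the RefSeq start site, between cores at -135 to -131 and -66 to -62. In DUSP1 the full element lay at -125 to -118, with further cores at -172 to -168 and -111 to -107. The core lay at -64 to -60 in FOS and at -60 to -56 in FOSB, and farther out in JUNB (-137 to -133), IER2 (-140 to -136) and JUN (-123 to -119). These are letter matches, not measured binding. Sites farther than 250 bases before a start site were not searched, so a gene without a match may have one there.

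**Figure D1:**
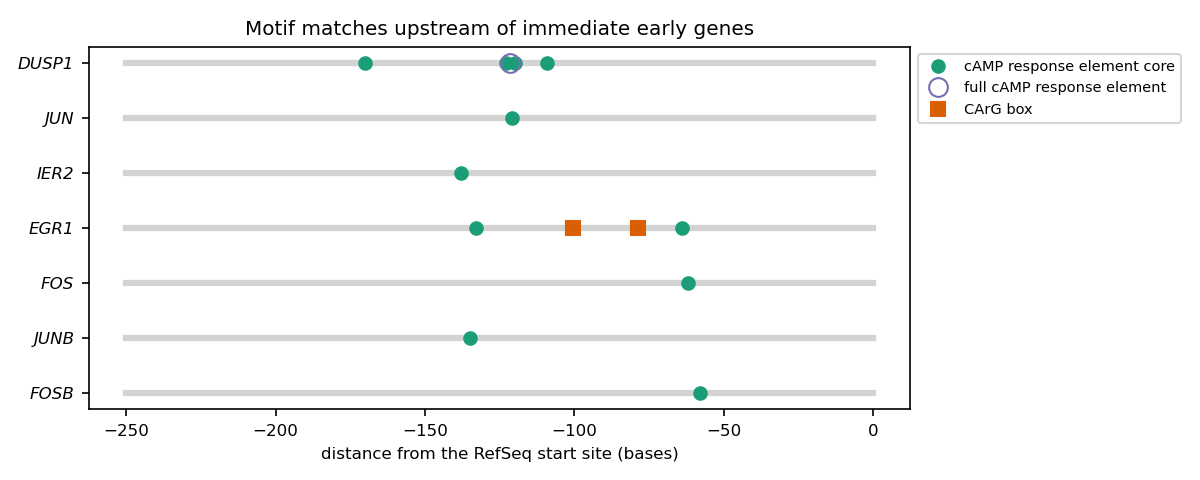
Motif matches in the promoter windows of the 7 immediate early genes that had any, plotted by distance from the RefSeq start site in bases; circles are cAMP response element cores, the open ring the full element and squares the CArG boxes. DUSP1 is the gene with a full element and EGR1 the gene with 2 CArG boxes.

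The means of the 10 genes ran from 0.0618 to 5.75 FPKM. Of the 10, 5 reached the mean of 1 FPKM over the 6 libraries that was required for testing, as did 18159 of 59147 genes. DUSP1 led with a mean of 5.75 FPKM, followed by JUN at 4.94, IER2 at 2.07, EGR1 at 1.73 and FOS at 1.06. Just below the threshold lay ATF3 at 0.819 FPKM, then ARC at 0.633, JUNB at 0.541, NR4A1 at 0.335 and FOSB at 0.0618. In that order, the ranges over the libraries did not overlap between JUN and IER2, or between NR4A1 and FOSB; all other neighbours overlapped. FOSB rested on 11 to 38 reads per library and JUNB on 37 to 114.

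Among the AP-1 components, which bind DNA as pairs, FOS (GRCh38 chr14:75278774-75282230, plus strand) stood at 1.01 and 1.09 FPKM in scramble, 1.13 and 1.45 in shRNA1, and 0.815 and 0.895 in shRNA2. Both shRNA1 libraries lay above scramble and both shRNA2 libraries below it. JUN (chr1:58780788-58784327, minus strand), the main partner of FOS, stood at 4.53 and 5.41 FPKM in scramble, 5.49 and 5.62 in shRNA1, and 4.47 and 4.14 in shRNA2, in the same order of groups without overlap. JUNB (chr19:12791496-12793315, plus strand), a partner that can restrain JUN, stood at 0.436 and 0.811 FPKM in scramble, 0.614 and 0.525 in shRNA1, and 0.489 and 0.371 in shRNA2. The shRNA2 libraries were both below the shRNA1 libraries, and the scramble libraries spanned nearly the whole range. FOSB (chr19:45467995-45475179, plus strand), a FOS relative, stood at 0.0425 and 0.0467 FPKM in scramble, 0.0831 and 0.0872 in shRNA1, and 0.0711 and 0.0405 in shRNA2, with the shRNA1 libraries above all others. ATF3 (chr1:212565334-212620777, plus strand), a CREB-family factor induced by stress, stood at 0.759 and 0.864 FPKM in scramble, 0.758 and 0.632 in shRNA1, and 1.04 and 0.859 in shRNA2. ATF3 alone among the 10 had both shRNA2 libraries above both shRNA1 libraries, and its shRNA2 and scramble libraries overlapped.

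Of the remaining transcription factors, EGR1 (chr5:138465490-138469315, plus strand), a zinc finger factor, stood at 1.46 and 2.097 FPKM in scramble, 2.01 and 2.14 in shRNA1, and 1.38 and 1.27 in shRNA2. The shRNA2 libraries lay below all others, and the shRNA1 libraries lay on either side of scramble replicate 2. NR4A1 (chr12:52022832-52059507, plus strand), an orphan nuclear receptor, stood at 0.3002 and 0.360 FPKM in scramble, 0.338 and 0.382 in shRNA1, and 0.317 and 0.312 in shRNA2. IER2 (chr19:13150415-13154908, plus strand) stood at 1.61 and 2.52 FPKM in scramble, 2.05 and 2.42 in shRNA1, and 1.86 and 1.94 in shRNA2. For NR4A1 and IER2 both hairpins lay within or overlapped the scramble range. ARC (chr8:142611044-142614472, minus strand), which regulates AMPA receptors at synapses, stood at 0.538 and 0.873 FPKM in scramble, 0.686 and 0.720 in shRNA1, and 0.504 and 0.477 in shRNA2, so that shRNA2 lay below all other libraries. DUSP1 (chr5:172768090-172771195, minus strand), a phosphatase that switches off MAP kinases, stood at 4.95 and 6.27 FPKM in scramble, 6.99 and 6.29 in shRNA1, and 5.34 and 4.65 in shRNA2. Its shRNA1 libraries were the highest, and its shRNA2 libraries lay within or below the scramble range.

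**Figure D2:**
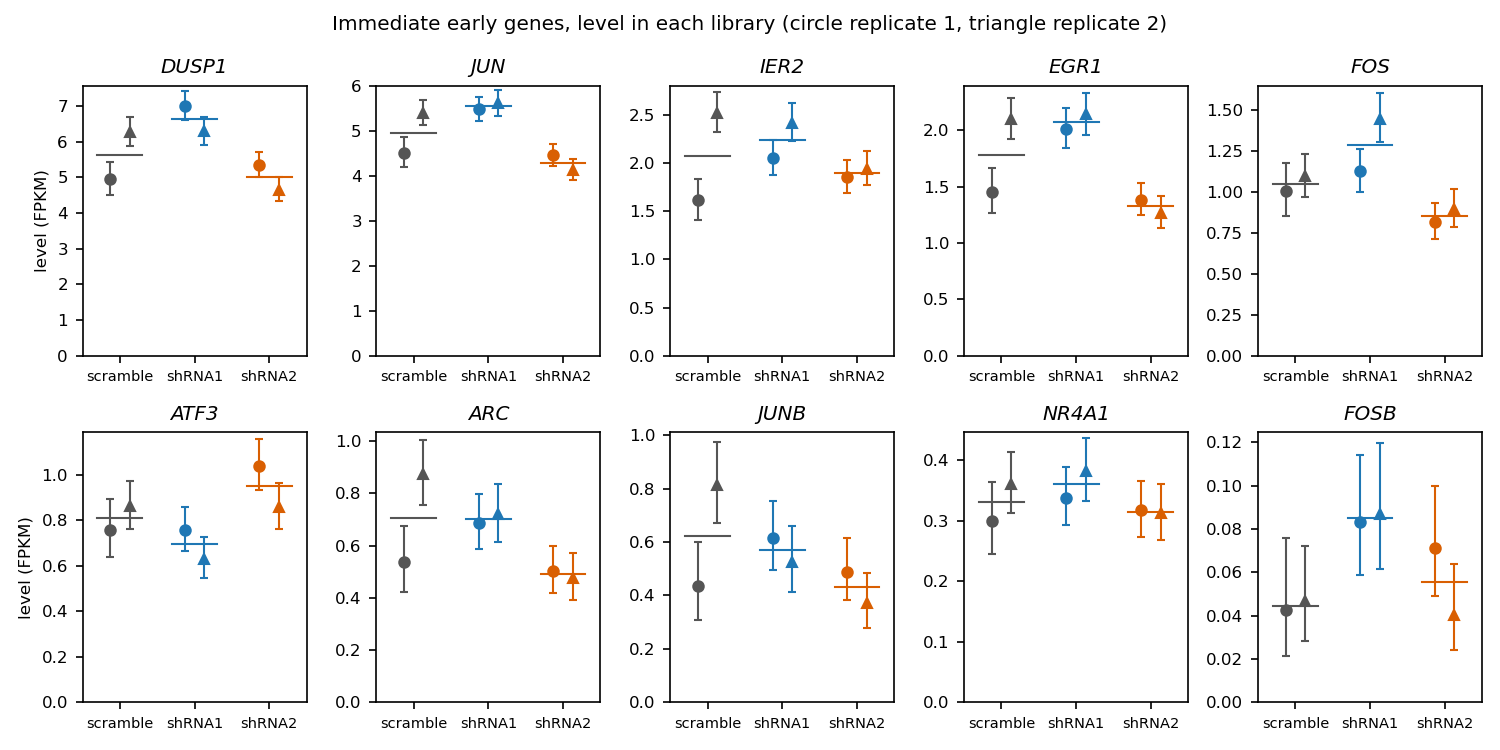
Level in FPKM of each immediate early gene in the 6 libraries (circles replicate 1, triangles replicate 2; horizontal lines group means; bars 95% Poisson intervals of the reads, counting error only). In all 10 panels scramble replicate 2 lies above replicate 1, and in 9 of 10 both shRNA2 libraries lie below both shRNA1 libraries.

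In 7 of the 10 genes the scramble libraries differed from each other, in log2(FPKM + 1), more than the libraries of either hairpin did; FOS, ATF3 and FOSB were the exceptions. Scramble replicate 2 exceeded replicate 1 in 10 of 10 genes, by 1.86 times in JUNB, 1.62 times in ARC and 1.56 times in IER2, and by a median of 0.25 in log2(FPKM + 1). Over all 18159 tested genes 56.6% were higher in replicate 2, with a median of 0.04. The median SD between replicates over all tested genes was 0.109 in scramble, 0.0355 in shRNA1 and 0.0452 in shRNA2, on the same scale. The share of all FPKM on small structured RNAs was 33.5% for scramble replicate 1 and 43.2% for replicate 2, against 36.9% to 38.9% for the hairpin libraries; its part was not tested. The difference between the scramble libraries also moved with the GC content of transcripts: from the tested protein-coding genes of at most 38% GC to those above 62%, the median of scramble replicate 2 minus replicate 1 went from -0.17 to 0.39. The immediate early genes are GC-rich, from 46.7% in ATF3 and 52.6% in FOS to 64.9% in JUNB and 66.8% in ARC, and 9 of the 10 exceeded the median of 47.2% for tested protein-coding genes. Between the hairpins the same trend was smaller, with medians of shRNA2 minus shRNA1 from -0.04 to -0.15.

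Averaged over both hairpins, no immediate early gene differed from scramble beyond the spread between libraries. The differences in log2(FPKM + 1) were -0.05 for EGR1, -0.01 for JUN, 0.00 for FOS, 0.01 for IER2 and 0.04 for DUSP1, and their 95% intervals from limma ran from -0.33 to 0.35 at the widest, for IER2, and from -0.20 to 0.18 at the narrowest, for JUN. Of the 5 tested genes, 0 passed (adjusted p from 0.899 to 0.987) and 0 had an unadjusted p under 0.05, where 0.0826% of all tested genes passed in limma, 15 in all, and 13.8% had an unadjusted p under 0.05. Their median was 0.00 and that of all tested genes -0.03. The groups overlapped for all 10 genes, where 17.8% of the 42742 genes above 0 in all libraries did not overlap. The direction of these values moved with the scramble library used: without scramble replicate 1 the 5 genes' median was -0.12, and without replicate 2 it was 0.12.

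The comparisons of each hairpin with scramble share the scramble libraries. Under shRNA1 the differences were 0.21 for DUSP1 (SE 0.12), 0.16 for EGR1 (SE 0.12), 0.15 for FOS (SE 0.09), 0.14 for JUN (SE 0.09) and 0.09 for IER2 (SE 0.15). In limma 0 of 5 passed (adjusted p from 0.704 to 0.943) and 0 had an unadjusted p under 0.05, against 0.033% and 8.98% of all tested genes, and their median was 0.15 against 0.00 for all tested genes. FOS, JUN, DUSP1 and FOSB lay above scramble without overlap, where 18.2% of the 42742 genes did, and ATF3 lay below it, where 17.9% did.

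Under shRNA2 the differences from scramble were -0.25 for EGR1 (SE 0.12), -0.17 for JUN (SE 0.09), -0.14 for FOS (SE 0.09), -0.14 for DUSP1 (SE 0.12) and -0.07 for IER2 (SE 0.15). In limma 0 of 5 passed (adjusted p from 0.341 to 0.847) and 0 had an unadjusted p under 0.05, against 0.628% and 19.2% of all tested genes, and their median was -0.14 against -0.06 for all tested genes. FOS, JUN, EGR1 and ARC lay below scramble without overlap, where 25.9% of the 42742 genes did. Without scramble replicate 1, EGR1 passed at -0.41 (adjusted p = 0.0397), in a fit that called 2411 genes and assumes that the lone scramble library varies like the other groups. The 5 other genes were below the level required for testing. With all libraries they did not pass in a limma fit without that filter, in any comparison (adjusted p from 0.539 to 1). That fit called 0 of all genes in every comparison, so it cannot show whether these 5 differed.

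**Figure D3:**
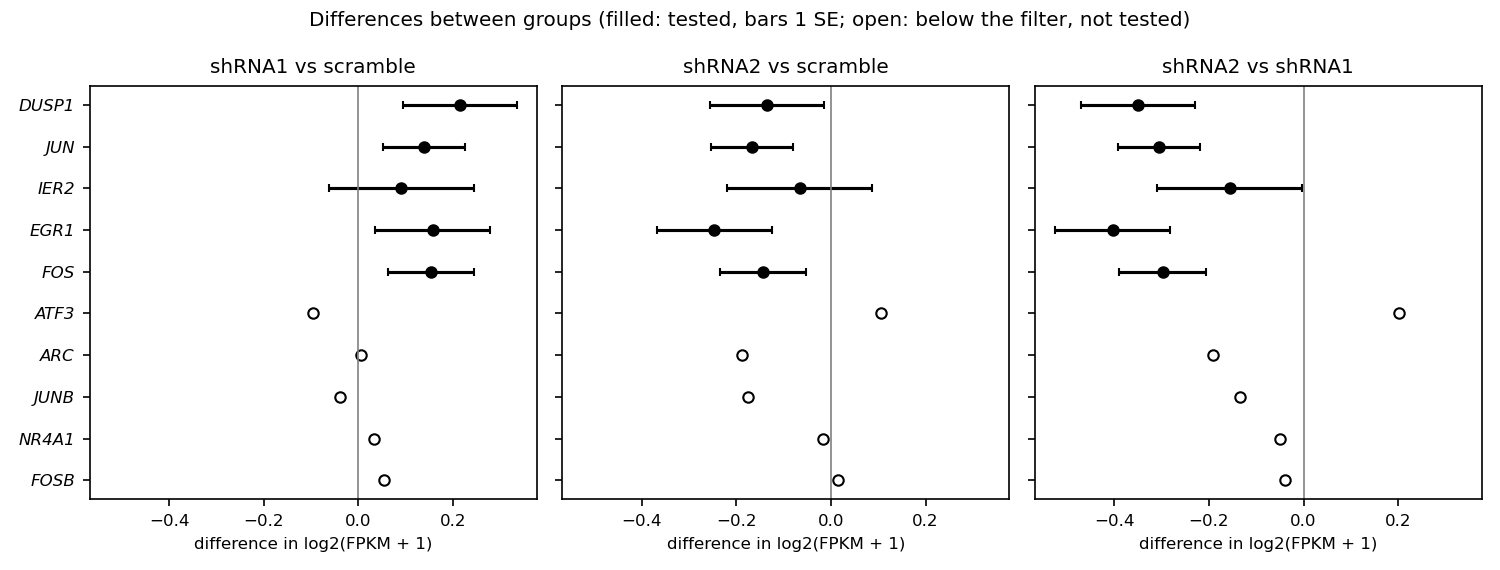
Difference in log2(FPKM + 1) of each immediate early gene for shRNA1 against scramble, shRNA2 against scramble and shRNA2 against shRNA1; filled points were tested, with bars of 1 SE, and open points lay below the filter. Under shRNA2 against shRNA1, 9 of the 10 points lie below 0 and ATF3 lies at 0.20.

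Each of the 5 tested genes averaged above scramble with shRNA1 and below it with shRNA2 in log2(FPKM + 1). By arithmetic, the difference between the hairpins, whose means use no scramble library, is then larger than either difference from scramble. EGR1 averaged 1.32 ± 0.0832 FPKM (SD, n = 2) with shRNA2 and 2.08 ± 0.0911 (SD, n = 2) with shRNA1, a ratio of 0.638. FOS averaged 0.855 ± 0.0565 and 1.29 ± 0.227 (SD, n = 2 each), a ratio of 0.665. DUSP1 averaged 4.997 ± 0.486 and 6.64 ± 0.491, a ratio of 0.753, and JUN 4.31 ± 0.231 and 5.56 ± 0.0957, a ratio of 0.775. ARC had a ratio of 0.697, FOSB 0.655, JUNB 0.756, IER2 0.850 and NR4A1 0.874, whereas ATF3 was 1.37 times as high with shRNA2. The groups did not overlap for any of the 10: 9 were lower with shRNA2, where 33.3% of the 42742 genes above 0 in all libraries were, and ATF3 was higher, where 18.7% were.

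In log2(FPKM + 1), shRNA2 minus shRNA1 was -0.40 for EGR1 (SE 0.12), -0.35 for DUSP1 (SE 0.12), -0.31 for JUN (SE 0.09), -0.30 for FOS (SE 0.09) and -0.16 for IER2 (SE 0.15). In limma 0 of 5 passed, with adjusted p of 0.240 for EGR1, 0.272 for DUSP1, 0.226 for JUN, 0.244 for FOS and 0.650 for IER2; 0.0% of all tested genes passed, and 2929 genes had an unadjusted p under 0.05. At an unadjusted p under 0.05, 4 of the 5 were lower, all but IER2, where 12.1% of all tested genes were lower. Their median was -0.31 and that of all tested genes -0.06, and the 5 did not overlap, where 46.6% of all tested genes were lower without overlap. The 95% interval for IER2, -0.55 to 0.23, does not show that its level was alike in both.

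Calls between the hairpins depended on the scramble libraries, since the fit shares 1 estimate of spread over the groups. With the 4 hairpin libraries alone, EGR1 (adjusted p = 0.0480) and JUN (adjusted p = 0.0498) were called lower, and DUSP1 (0.0836), FOS (0.124) and IER2 (0.231) were not; 4.42% of all tested genes were called lower in that limma fit. The differences themselves are the same in that fit. With the GC trend removed from each library, an alternative added after seeing the data and run on 10089 protein-coding genes, EGR1 at -0.30 (adjusted p = 0.00857), DUSP1 at -0.25 (0.0227) and JUN at -0.20 (0.00782) were called lower, while FOS at -0.20 (0.0920) and IER2 at -0.03 (0.822) did not pass. In that limma fit 9.82% of the genes were called lower and 8.7% higher, 1869 in all, and it makes no allowance for the trend having been estimated. It placed the scramble libraries closer together for EGR1, at 1.56 and 1.81 FPKM, JUN, at 4.82 and 4.76, DUSP1 and IER2, and farther apart and in the other order for FOS, at 1.05 and 0.934. Against scramble it called JUN higher with shRNA1 (0.14, adjusted p = 0.0434, where 3.74% of genes were called higher) and none of the 5 with shRNA2, where EGR1 was at -0.13 (adjusted p = 0.123; 16.3% of genes called, either direction).

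**Figure D4:**
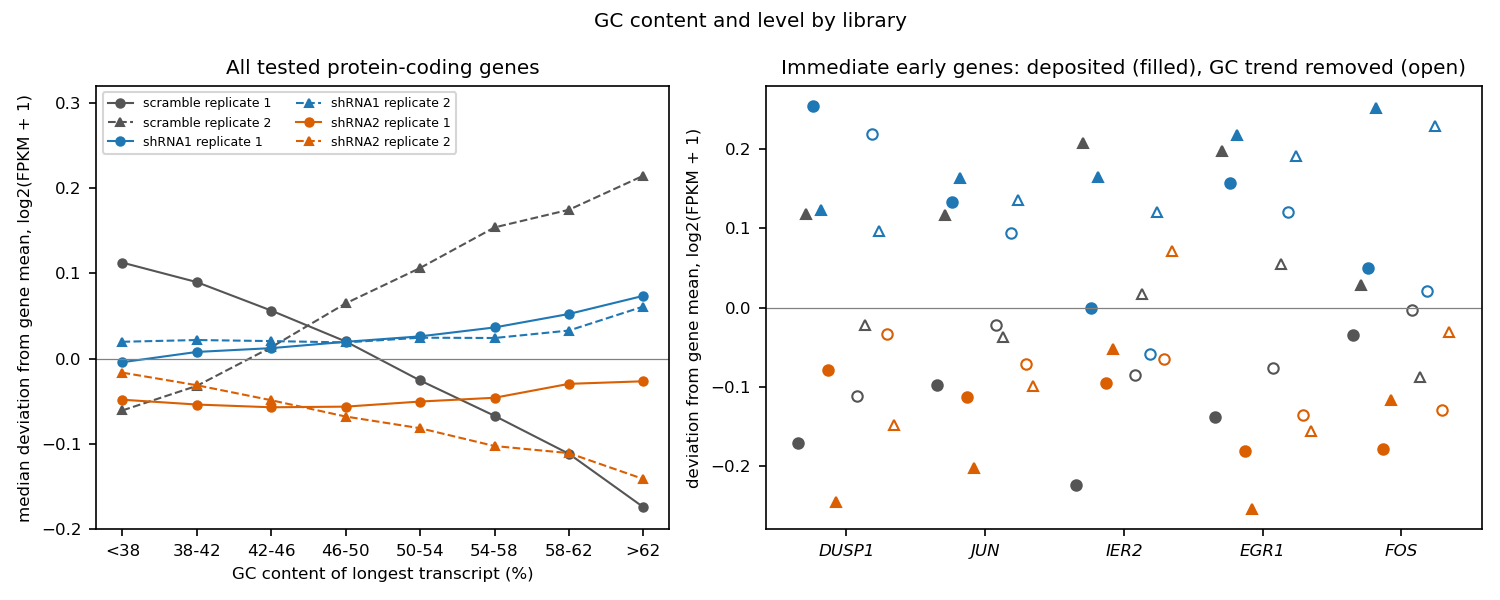
Left, median deviation of each library from the gene mean in log2(FPKM + 1), by GC content in percent, over 10089 protein-coding genes; right, deviation of the 5 tested immediate early genes in each library as deposited (filled) and with the trend removed (open), scramble gray, shRNA1 blue, shRNA2 orange, circles replicate 1 and triangles replicate 2. The scramble libraries cross at mid GC and part in opposite directions, and in EGR1, JUN and DUSP1 the open shRNA2 symbols remain below the open shRNA1 symbols.

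Beyond the 10 genes, 14 of 32 other immediate early genes were tested. PLK2, a kinase of the polo family induced by synaptic activity, was the 1 called among them: it stood at 5.997 and 6.32 FPKM in scramble, 6.33 and 6.49 in shRNA1, and 3.91 and 4.11 in shRNA2. It fell by 0.52 on the log2 scale with shRNA2 against scramble (limma adjusted p = 0.0486), where 0.441% of all tested genes fell, and shRNA2 minus shRNA1 was -0.57 (adjusted p = 0.0975). The call held in 6 of 15 alternatives, with log2 differences from -0.61 to -0.41 and an adjusted p of up to 0.373; it was lost without any 1 of the 4 hairpin libraries, and with no filter, quantile normalization, median of ratios, the compared groups alone and the replicate block. Between the hairpins the 14 had a median of -0.15, with 12 lower without overlap (46.6% of all tested genes), 4 of them at an unadjusted p under 0.05 (12.1%), and 0 called. The other 2 were higher with shRNA2 without overlap: CYR61 (now CCN1) at 0.22 (adjusted p = 0.230) and CTGF (now CCN2) at 0.34 (adjusted p = 0.149), both genes of secreted matrix proteins. BTG2, an antiproliferative gene, was at -0.26 (adjusted p = 0.156). With the GC trend removed, 4 were called lower and 2 higher between the hairpins (9.82% and 8.7% of all genes), PLK2 at -0.49 (adjusted p = 0.000455), BTG2 at -0.17 (0.0123), CYR61 at 0.31 (0.00562) and CTGF at 0.43 (0.00482) among them.

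Of the late activity-regulated neuronal genes, which immediate early products and CREB help to induce, 8 of 14 were tested. SYT4, a synaptotagmin of dense-core vesicles, stood at 9.32 and 8.24 FPKM in scramble, 9.28 and 9.31 in shRNA1, and 4.58 and 4.72 in shRNA2; it fell by 0.79 on the log2 scale with shRNA2 against scramble (limma adjusted p = 0.0358). RGS2, a regulator of G-protein signalling, stood at 11.3 and 11.2 FPKM in scramble, 10.9 and 11.4 in shRNA1, and 7.34 and 7.97 in shRNA2; it fell by 0.50 (adjusted p = 0.0496). For both genes shRNA1 was level with scramble and shRNA2 stood apart, and both calls were lost without any 1 hairpin library. The SYT4 call held in 7 of 15 alternatives, with log2 differences from -0.90 to -0.69 and adjusted p up to 0.367, and the RGS2 call in 5 of 15, from -0.55 to -0.38 and up to 0.373; both were also lost with no filter, quantile normalization, the compared groups alone and the replicate block. Between the hairpins 6 of the 8 were lower with shRNA2 without overlap (46.6% of all tested genes), 4 at an unadjusted p under 0.05 (12.1%) and 0 called, with a median of -0.40; CREM, a CREB-family gene, was higher without overlap at 0.05. With the GC trend removed 5 of the 8 were called lower, SYT4, RGS2, SCG2, PCSK1 and VGF, where 9.82% of all genes were. Without that correction SCG2, a secretogranin, was at -0.48 between the hairpins (limma adjusted p = 0.132). With it SCG2 was at -0.41 (adjusted p = 0.00128). Its libraries stood at 6.09 and 5.26 FPKM in scramble, 8.22 and 8.37 in shRNA1, and 5.57 and 5.77 in shRNA2. For SCG2, then, shRNA1 stood apart.

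**Figure D5:**
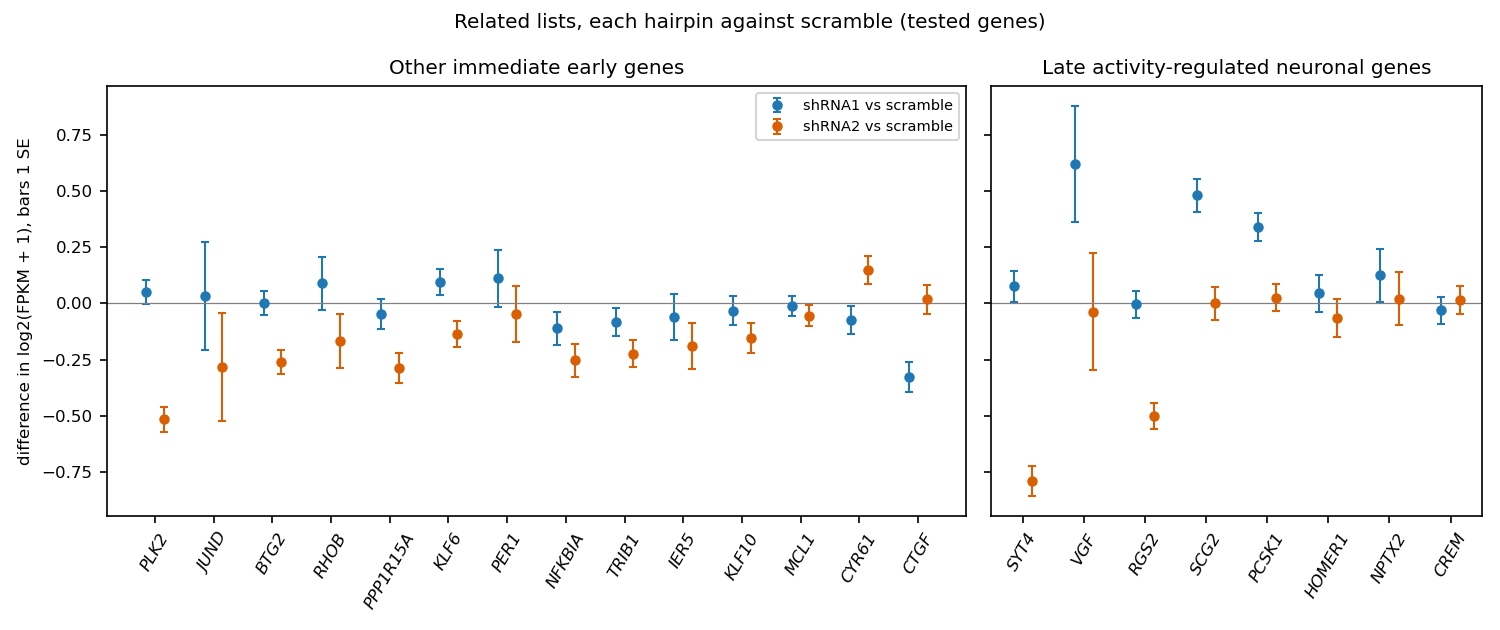
Difference in log2(FPKM + 1) from scramble for shRNA1 (blue) and shRNA2 (orange), with bars of 1 SE, for the tested genes of 2 related lists, ordered by shRNA2 minus shRNA1. PLK2, SYT4 and RGS2 are the genes called under shRNA2, and the 2 hairpins are measured against the same scramble libraries.

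Upstream of these genes, 0 of 16 tested transcription factors and 0 of 19 tested members of the MAP kinase cascade were called in any comparison. Between the hairpins 3 of the 16 and 4 of the 19 were lower at an unadjusted p under 0.05, where 12.1% of all tested genes were, with medians of -0.08 and -0.14. They included the activity-responsive factors MEF2D (-0.31, limma adjusted p = 0.240) and MEF2C (-0.24, 0.240) and the CREB coactivator CRTC3 (-0.16, 0.277). SRF, serum response factor itself, stood at 3.69 and 5.18 FPKM in scramble, 3.92 and 4.08 in shRNA1, and 3.68 and 3.29 in shRNA2, and CREB1 at 6.94 and 6.001, 6.31 and 6.35, and 6.36 and 6.28; both were named as the factors of the motifs searched, outside the rule. Of 14 tested feedback targets of the ERK pathway 0 were called, with 2 higher and 3 lower at an unadjusted p under 0.05 between the hairpins. The 3 of smallest p were PHLDA1 at -0.45 (adjusted p = 0.132), the phosphatase gene DUSP4 at -0.42 (0.133) and SPRY1, an inhibitor of receptor signalling, at 0.32 (0.193). With the GC trend removed, 5 feedback targets were called higher and 2 lower between the hairpins, and 2 transcription factors and 3 members of the cascade lower, beside the shares of 8.7% higher and 9.82% lower over all genes. In that fit 3 feedback targets were called higher and 1 lower with each hairpin against scramble, DUSP6 higher with both. Of the transcription factors it called 1 with each hairpin against scramble, and 0 members of the cascade. These were MEF2C, higher with shRNA1 (0.22, limma adjusted p = 0.0134), and SRF, lower with shRNA2 (-0.16, adjusted p = 0.0421). Over all genes 3.74% were called higher with shRNA1 and 16.3%, either direction, with shRNA2. Without GC correction DUSP6 lay above scramble without overlap with both hairpins, and PHLDA1 and CCND1 below (17.8% of the 42742 genes, either direction). DUSP6 and CCND1 were named outside the rule.

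Downstream and in stress pathways, 0 of 2 tested AP-1 target genes, 0 of 12 integrated stress response genes, 0 of 12 cytosolic heat shock genes and 0 of 15 regulators of AU-rich transcripts were called in any comparison. With the GC trend removed, calls between the hairpins were 2 stress response genes lower, 3 heat shock genes higher and 3 regulators of AU-rich transcripts higher, where 8.7% of all genes were called higher and 9.82% lower; against scramble, 1 stress response gene was called higher with shRNA1, 1 higher and 1 lower with shRNA2, 2 heat shock genes higher and 1 lower with shRNA2, and 4 regulators lower with shRNA1 and 1 with shRNA2. Of the AP-1 target genes, 1 was then called lower with each hairpin against scramble. Over all genes that fit called 3.74% higher with shRNA1 and 16.3%, either direction, with shRNA2 against scramble. The number of all genes called with shRNA1, either direction, is given in the last section. ATF4, the factor that induces ATF3 under stress, stood at 24.8 and 28.0 FPKM in scramble, 26.9 and 27.6 in shRNA1, and 24.8 and 24.6 in shRNA2. DDIT3, another target of ATF4, stood at 3.76 and 4.32, 4.64 and 4.79, and 3.48 and 4.24. In FPKM both were lower with shRNA2 than with shRNA1, where ATF3, below the level required for testing, was higher. Neither difference passed in limma (ATF4 at -0.14, adjusted p = 0.403, and DDIT3 at -0.24, adjusted p = 0.328). With the GC trend removed, ATF4 was at -0.03 (adjusted p = 0.634) and DDIT3 at -0.15 (adjusted p = 0.184). ATF4 and DDIT3 too were named outside the rule. Of the 12 stress response genes 9 were lower than with shRNA1 without overlap, as were 46.6% of all tested genes, and 1 was higher.

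Markers of cell state moved with the hairpin difference. The summed level of the 12 neuron markers was 402 and 395 FPKM in scramble, 416 and 421 in shRNA1, and 357 and 356 in shRNA2, and 9 of the 10 tested were lower with shRNA2 than with shRNA1 without overlap, where 46.6% of all tested genes were. DCX, a microtubule protein of young neurons, was at -0.32 (limma adjusted p = 0.141). The neuron markers did not all move alike. With the GC trend removed, 1 was called higher, ELAVL4, and 4 lower between the hairpins (8.7% and 9.82% of genes). Against scramble 4 were called higher with shRNA1, where 3.74% of genes were. With shRNA2 2 were called higher and 1 lower (16.3% of genes called, either direction). TBR1 and SYT1 were called higher with both hairpins. The summed level of the 12 forebrain progenitor markers was 254 and 273 FPKM in scramble, 243 and 244 in shRNA1, and 258 and 252 in shRNA2. That sum holds opposite movements. With the GC trend removed, 4 were called higher and 4 lower with shRNA2 against scramble (16.3% of genes called, either direction). With shRNA1 0 were called higher, where 3.74% of genes were, and 4 lower. The number of all genes called with shRNA1, either direction, is given in the last section. Between the hairpins 6 were called higher and 1 lower (8.7% and 9.82% of genes). The 7 pluripotency markers summed to 11.99 and 12.3 FPKM in scramble, 13.4 and 13.5 in shRNA1, and 22.0 and 21.7 in shRNA2, and LIN28A, DPPA4 and SALL4 rose with shRNA2 against scramble (log2 differences 1.05, 0.87 and 0.54; adjusted p = 0.0244, 0.0353 and 0.0486). Of the 6 choroid plexus markers, TTR fell with shRNA1 (log2 -2.16, adjusted p = 0.0169) and shRNA2 (-2.79, 0.00866), while OTX2, which also marks forebrain progenitors, stood higher with shRNA2 at 14.1 and 14.7 FPKM against 11.2 and 11.8 in scramble (log2 difference 0.30, adjusted p = 0.0846, and 0.38, 0.00193, with the GC trend removed). The calls of LIN28A, DPPA4 and SALL4 each held in 7 of 14 alternatives and were lost without any 1 hairpin library, that of TTR with shRNA1 without any 1 of the 6 libraries, and that of TTR with shRNA2 without either shRNA2 library. Mesenchymal and pericyte markers, all below 1 FPKM on average, summed to 4.18 and 4.91 FPKM in scramble, 1.96 and 1.95 in shRNA1, and 2.31 and 1.996 in shRNA2, and endothelial markers to 0.589 and 0.561, 0.345 and 0.375, and 0.385 and 0.429. Astrocyte and oligodendrocyte lineage markers, 1 of 6 and 2 of 6 of them tested, had 0 calls, and microglia markers summed to 1.38 and 1.45 FPKM in scramble, 1.35 and 1.38 in shRNA1, and 1.07 and 1.01 in shRNA2. The part of these shifts in the immediate early gene result was not tested.

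Profiles over the 6 libraries were compared with that of FOS for 8557 genes outside the lists, a subset of the 18159 tested. The most alike were ETS2, RTCA, ZNF778, USP27X and RABIF, ranked by the root mean square difference between centred log2(FPKM + 1) profiles. ETS2, a transcription factor gene, was nearest at 0.0468, with 1.06 and 1.20 FPKM in scramble, 1.20 and 1.38 in shRNA1, and 0.949 and 1.01 in shRNA2. The other 4 lay at 0.0480 to 0.0498, where the root mean square of the FOS profile itself is 0.137. Of the other immediate early genes tested, JUN lay at 0.0798 and would have ranked 216. EGR1 lay at 0.109 (rank 1551), IER2 at 0.122 (rank 2712) and DUSP1 at 0.136 (rank 4242). The median over the 8557 ranked genes was 0.137. JUN was thus nearer to FOS than most genes, though not among the 5 nearest, and DUSP1 lay about at the median.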

How the data were processed

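The deposited table gives 1 FPKM value per gene and library, per the file headers. Per the submitters' processing notes, the authors used HISAT2 2.1.0 and featureCounts 2.0.1 among other tools, on GRCh38; the annotation or strand setting was not given in the sources used here, so overlapping or antisense reads cannot be told apart. Here, log2(FPKM + 1) of 18159 genes (mean of 1 FPKM or more over the libraries) was fitted with limma 3.58.1 (R 4.3.3; mean-variance trend, Benjamini-Hochberg adjustment over all tested genes, called under 0.05, two-sided) on 6 libraries in 3 groups, in 4 comparisons; the code was tested on simulated data. This scale understates changes of low genes. 4 rows with a duplicated symbol were left out. Read numbers were recovered from the FPKM with GENCODE v29 exon lengths, which matched exactly for 6 of the 10 genes (not ATF3, DUSP1, FOS and NR4A1, whose reads are approximate). The members and the 18 other lists were chosen with earlier results of these data known. Named were all 10 genes, RTN4, the genes of each list that were called or otherwise up to 3 of smallest p, and the 5 genes most like FOS. GC content is that of a gene's longest GENCODE v29 transcript. Alternatives covered pseudocount, filter, scaling, leaving out each library, pairs of groups, the replicate block and GC content.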

Additional observations from a re-analysis of the deposited data

Results flagged for a closer look

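FOS and JUN were singled out because every shRNA1 library lay above both scramble libraries and every shRNA2 library below them. The difference between the hairpins, shRNA2 minus shRNA1, was -0.298 for FOS and -0.306 for JUN in log2(FPKM + 1), lower in 2 of 2 shRNA2 libraries. Tested directly, it did not pass in limma (adjusted p = 0.244 for FOS and 0.226 for JUN). With the GC trend removed, FOS stood at 1.05 and 0.934 FPKM in scramble and at 0.879 and 1.01 in shRNA2, which overlap, whereas both shRNA2 libraries of JUN, at 4.63 and 4.52, stayed below its scramble libraries at 4.82 and 4.76.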

How the results depend on the processing

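Genes called in all, in the order knockdown against scramble, shRNA1 against scramble, shRNA2 against scramble and shRNA2 against shRNA1, numbered 15, 6, 114 and 0. No filter gave 0, 0, 0 and 0, and a minimum of 5 FPKM gave 35, 3, 261 and 46. Quantile normalization gave 30 for the knockdown and 71 for shRNA2, scaling by median of ratios 28 for the knockdown, and a pseudocount of 0.1 gave 2 for shRNA1. Pairs of groups alone gave 0, 1 and 957 for the last 3. The added protein-coding fit gave 103, 22, 382 and 247, and with GC correction 1057, 804, 1646 and 1869. Leaving out 1 library at a time gave 0 to 507, 0 to 1, 0 to 2411 and 0 to 1029. The replicate block gave 1, 0, 0 and 0 calls; same-numbered libraries did not deviate together (correlations of -0.0077, -0.150 and 0.0122), and the crossed block gave 7 for shRNA2. Immediate early genes called were 0 of 5 except for 1 with GC correction under shRNA1, 1 without scramble replicate 1 under shRNA2 and, between the hairpins, 2 with hairpin libraries alone or without either scramble library and 3 with GC correction. Their median, otherwise within 1 SD of the spread between replicates, ranged on leaving out 1 library from -0.12 to 0.12 for the knockdown, 0.032 to 0.31 for shRNA1 and -0.28 to -0.060 for shRNA2; without filter it was -0.17 between the hairpins, over 10 genes. For single genes, 0 of 71 values between the hairpins changed direction, against 16 of 66 for the knockdown, 2 of 71 for shRNA1 and 3 of 71 for shRNA2. Knockdown values that changed sign were, for FOS, -0.0040 with a pseudocount of 0.1 and -0.029 with quantile normalization; for JUN, 0.032 with quantile normalization, 0.022 with median of ratios and 0.044 with GC correction; for EGR1, 0.016 with GC correction. Leaving out 1 library, knockdown values ranged from -0.046 to 0.055 for FOS, -0.12 to 0.093 for JUN, -0.21 to 0.12 for EGR1, -0.20 to 0.23 for IER2 and -0.11 to 0.18 for DUSP1; shRNA1 values from -0.011 to 0.32 for EGR1 and -0.12 to 0.31 for IER2; and shRNA2 values from -0.28 to 0.15 for IER2 and -0.28 to 0.0083 for DUSP1. With GC correction IER2 was 0.037 under shRNA2. The cause was not tested. Depth limits FOSB and JUNB most; 1 read on 1 kb is worth 0.0120 to 0.0214 FPKM.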
